A study of Mus musculus with 6 samples.

Results

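Osteoclasts are the multinucleated cells that dissolve bone, and 10 genes of their formation and function were followed in the injured Achilles tendon of neonatal mice, among the 18099 genes of the expression table. The 10 genes were taken by name from the known biology of the cell: *Tnfsf11*, *Tnfrsf11a*, *Oscar*, *Calcr*, *Nfatc1*, *Dcstamp*, *Ocstamp*, *Atp6v0d2*, *Acp5* and *Ctsk*. Total RNA of whole tendon tissue was sequenced from 3 Ampkα1 fl/fl mice (the littermate control group) and 3 LysM-Cre; Ampkα1 fl/fl mice (hereafter the cKO group), all neonatal and all with a transected Achilles tendon, and the tissue was collected a week after the injury. Every mouse of both groups carried the floxed allele of *Prkaa1*, the gene of AMPKα1, a catalytic subunit of the energy sensor AMP-activated protein kinase. Cre under the lysozyme M locus is active in macrophages, monocytes and granulocytes and in osteoclast precursors of that lineage, while the RNA came from all cells of the tissue. The comparison asked whether the osteoclast genes differed between the genotypes.

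Osteoclasts form from the same myeloid precursors as macrophages. RANKL, encoded by *Tnfsf11* and presented by mesenchymal cells and lymphocytes, binds RANK, encoded by *Tnfrsf11a*, on the precursor. With a co-stimulatory signal from receptors such as OSCAR, this switches on the transcription factor NFATc1, which in turn drives the genes of cell fusion (*Dcstamp*, *Ocstamp*, *Atp6v0d2*) and of resorption (*Acp5*, *Ctsk*). Osteoprotegerin, encoded by *Tnfrsf11b*, is a decoy that captures RANKL.

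Library totals ran from 18076805 to 19479887 reads. *Prkaa1* had 740, 688 and 690 reads in the control mice and 626, 751 and 652 in the cKO mice (log2 fold change -0.08, 95% interval -0.29 to 0.13, edgeR adjusted p = 0.744). The deletion was thus not visible in the summed reads of the gene in whole tissue. Reads of the floxed part were not counted apart, so this sum does not test the deletion. *Lyz2*, the gene into which the Cre is inserted, had 7372 to 7778 reads in the control mice and 8 to 15 in the cKO mice, which matched the labels of all 6 libraries. The cKO mice thus lacked nearly all *Lyz2* RNA as well (log2 fold change -9.46, edgeR adjusted p = 3.41e-06). Effects of this loss and of the AMPKα1 deletion cannot be told apart here. The sex of the mice is not in the labels. The 4 Y-linked genes looked at after their values were seen, *Ddx3y*, *Eif2s3y*, *Uty* and *Kdm5d*, were higher in every cKO library than in every control library (*Ddx3y*, 8.21 to 12.47 against 16.81 to 25.21 in TPM, the authors' read level per length of transcript, with equal library sums), and sex composition and genotype cannot be told apart here.

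Of the 10 osteoclast genes 6 could be tested between the genotypes, and none of the 6 passed at an adjusted p of 0.05 (edgeR, Benjamini-Hochberg adjustment over all genes). *Ctsk* came nearest, with more reads in every cKO library. The 6 genes with enough reads were *Tnfsf11*, *Tnfrsf11a*, *Nfatc1*, *Atp6v0d2*, *Acp5* and *Ctsk*. The other 4, *Oscar*, *Calcr*, *Dcstamp* and *Ocstamp*, had at most 24 reads in any library. By edgeR 0 of the 6 passed, against 128 of 14261 genes (0.898%). At an unadjusted p under 0.05 there was 1 of the 6, *Ctsk*, against 14.5% of all genes tested, and DESeq2 also called 1, *Ctsk*, against 4.77% of all genes. The 3 control and the 3 cKO libraries did not overlap for 2 of the 6, *Ctsk* and *Tnfrsf11a*, against 20.4% of all genes tested. The median log2 fold change of the 6 was 0.06, with 4 higher and 2 lower in the cKO group. Over all genes tested the median was -0.00, and 49.4% were higher.

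The 2 resorption genes differed in level and in direction. *Ctsk* encodes cathepsin K, the acid protease with which osteoclasts digest bone collagen, and fibroblasts and cells of tendon and periosteum are also known to make it. *Acp5* encodes tartrate-resistant acid phosphatase, the enzyme stained for in identifying osteoclasts, and it is also found in some activated macrophages. The promoters of both genes (250 bases before to 50 after the RefSeq start, build GRCm38.p6) are shown because *Ctsk* was the member with the smallest p and because *Acp5* has several start sites. Capitals mark the letters GGAAA, the core of sites bound by NFAT factors, and GAGGAA, the core of sites bound by the myeloid factor PU.1, on either strand. The AP-1 site TGANTCA was also searched. The first and second motifs share the letters GGAA, so that a run GAGGAAA would count for both.

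*Ctsk*, chr3:95498960-95499259, plus strand: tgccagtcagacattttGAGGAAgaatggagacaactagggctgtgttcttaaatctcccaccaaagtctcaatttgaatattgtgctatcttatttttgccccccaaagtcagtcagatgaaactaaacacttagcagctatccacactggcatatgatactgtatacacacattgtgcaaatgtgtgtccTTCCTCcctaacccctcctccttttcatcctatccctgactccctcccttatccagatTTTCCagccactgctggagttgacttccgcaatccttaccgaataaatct

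*Acp5*, start nearest to transcript NM_001102404, chr9:22131816-22132115, minus strand: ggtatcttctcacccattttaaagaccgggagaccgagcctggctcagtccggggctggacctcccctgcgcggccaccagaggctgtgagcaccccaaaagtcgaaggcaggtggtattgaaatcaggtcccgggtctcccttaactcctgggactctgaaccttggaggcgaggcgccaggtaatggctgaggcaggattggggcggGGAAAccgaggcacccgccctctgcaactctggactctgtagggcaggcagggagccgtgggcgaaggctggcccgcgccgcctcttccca

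The *Ctsk* window held 1 GGAAA, 2 GAGGAA and 0 TGANTCA, and the *Acp5* window 1 GGAAA and 0 of the others. Of 32851 mouse promoters of this length, 61.3% held GGAAA, 28.3% held GAGGAA and 7.81% held TGANTCA on either strand. The RefSeq table had 9 promoters for 6 of the 10 members, of which 7 held GGAAA, 2 held GAGGAA and 0 held TGANTCA. These matches describe the letters only.

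*Ctsk* (NCBI Gene 13038, chr3:95499210-95509387) had 7618, 6835 and 6836 reads in the control mice and 9620, 8456 and 8541 in the cKO mice. On the length-adjusted scale these were 641.34, 574.64 and 598.62 TPM against 790.0, 749.93 and 711.69 TPM, so that the lowest cKO library lay above the highest control library. The level was 605.0 ± 33.8 TPM in the control group and 751.0 ± 39.2 TPM in the cKO group (SD, n = 3 each). The fitted difference was 23.4% (log2 fold change 0.30 ± 0.06 (standard error, SE), 95% interval 0.15 to 0.45), with an unadjusted p of 0.00206 and an adjusted p of 0.0914 by edgeR. DESeq2 placed it past the threshold (log2 fold change 0.31, adjusted p = 0.000252). Over all 13 alternative settings the log2 fold change lay between 0.26 and 0.34 and the adjusted p between 0.000252 and 0.319. The two-sided exact permutation test gave p = 0.1, the smallest that 3 against 3 allows. In bulk tissue, more cells of a type and more RNA per cell cannot be told apart.

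*Acp5* (NCBI Gene 11433, chr9:22126727-22135746) did not move with *Ctsk*. It had 334, 239 and 303 reads in the control mice and 328, 196 and 287 in the cKO mice, or 31.99, 22.83 and 30.43 TPM against 30.63, 19.95 and 27.51 TPM. The groups overlapped over most of their range, and the second mouse of each group was the lowest. The log2 fold change was -0.13 ± 0.20 (SE, 95% interval -0.60 to 0.34, edgeR adjusted p = 0.826), so that a decrease to 0.658 times or an increase to 1.27 times the control level lay within the interval. Without the second cKO mouse the estimate was 0.05.

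**Figure D1:**
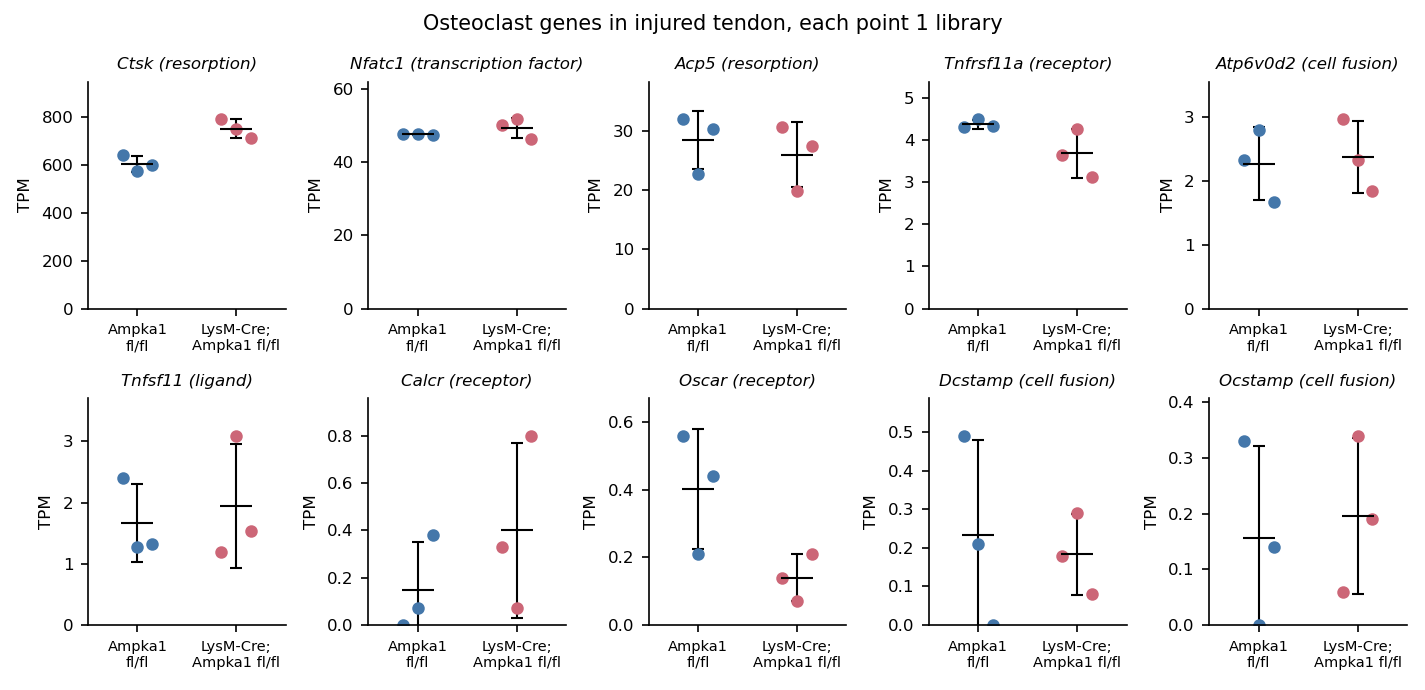
Level of each of the 10 osteoclast genes in TPM (vertical axes, from 0, each on its own scale) in the 3 Ampkα1 fl/fl and the 3 LysM-Cre; Ampkα1 fl/fl libraries; points are libraries, crossbars are means and bars are SD. *Ctsk* is the most abundant and its groups are apart (574.64 to 641.34 against 711.69 to 790.0 TPM), while the 4 genes of the lower right are all at 0.8 TPM or less.

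The reads of *Acp5* fell mostly on 1 of its 8 RefSeq transcripts. NM_001102404, whose promoter is printed above, took 65.0%, 66.8% and 86.5% of the gene's reads in the control mice and 65.1%, 83.2% and 83.6% in the cKO mice. The share was thus low in 2 control mice and 1 cKO mouse, and the groups did not differ beyond their spread (72.7 ± 11.9% against 77.3 ± 10.6%, SD, n = 3 each, two-sided exact permutation p = 0.9). Of the transcripts with a known start site, NM_001102405 starts farthest upstream, and it took at most 3.54%. XM_030244022, whose start was not available, took 4.61% to 23.8%. NM_007388 had 0 estimated reads in every control library and 16.8, 5.0 and 7.8 in the cKO libraries, at most 5.12% of the gene. Estimated reads of transcripts that share exons are split by the counting tool, so such small shares are uncertain. For *Ctsk*, NM_007802 took 99.5% to 99.8% of the reads in every library.

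Of the 3 fusion genes 1 had enough reads to be tested. *Atp6v0d2* (NCBI Gene 242341, chr4:19876838-19922566) encodes a subunit of the proton pump that is also needed for precursors to fuse. It had 50, 60 and 36 reads in the control mice and 66, 48 and 42 in the cKO mice (2.33, 2.81 and 1.67 against 2.97, 2.33 and 1.84 TPM). The ranges overlapped, and the log2 fold change was 0.07 ± 0.26 (SE, 95% interval -0.55 to 0.69, edgeR adjusted p = 0.936). Its sign turned when the third control mouse (-0.10) or the first cKO mouse (-0.11) was left out.

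*Dcstamp* (NCBI Gene 75766, chr15:39745930-39760938) and *Ocstamp* (NCBI Gene 74614, chr2:165395450-165400394) encode the membrane proteins without which osteoclast precursors stay mononuclear. *Dcstamp* had 7, 3 and 0 reads in the control mice and 2, 4 and 1 in the cKO mice. *Ocstamp* had 5, 0 and 2 reads against 1, 5 and 3. For each of the 2 genes 4 of the 6 libraries held 3 reads or fewer, which was treated as the floor. Summed over the 3 libraries of a group and scaled to the library totals, the ratio of cKO to control was 0.686 for *Dcstamp* (10 and 7 reads, exact 95% interval 0.222 to 2.0) and 1.26 for *Ocstamp* (7 and 9 reads, 0.417 to 3.98). These intervals cover counting error only, and no difference was detectable at this depth.

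*Nfatc1* (NCBI Gene 18018, chr18:80606205-80713071), the master transcription factor of the osteoclast, had the smallest standard error of the tested members. It had 1918, 1944 and 1853 reads in the control mice and 2101, 1998 and 1890 in the cKO mice. The levels were 47.72, 47.8 and 47.34 TPM against 50.08, 51.75 and 46.34 TPM, so the third cKO mouse was below all control mice and the other two above them. The log2 fold change was 0.05 ± 0.05 (SE, 95% interval -0.07 to 0.17, edgeR adjusted p = 0.73), and the interval runs from 0.95 to 1.13 times the control level. NFATc1 is also used by other cells, among them T cells, endothelial cells and tendon and cartilage progenitors.

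*Nfatc1* has an upstream and a downstream promoter, and the short isoforms that NFATc1 itself induces start at the upstream one. In the RefSeq transcripts of the file, 3 start at positions 80712766 to 80713071 and 3 at 80708173, on the minus strand, with 4898 bases between the outermost starts. Transcripts of the upstream start took 63.0%, 57.0% and 65.0% of the gene's reads in the control mice and 67.1%, 59.0% and 54.3% in the cKO mice. The lowest and the highest share were both in the cKO group, and the means were 61.6 ± 4.14% and 60.2 ± 6.48% (SD, n = 3 each, two-sided exact permutation p = 0.8).

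**Figure D2:**
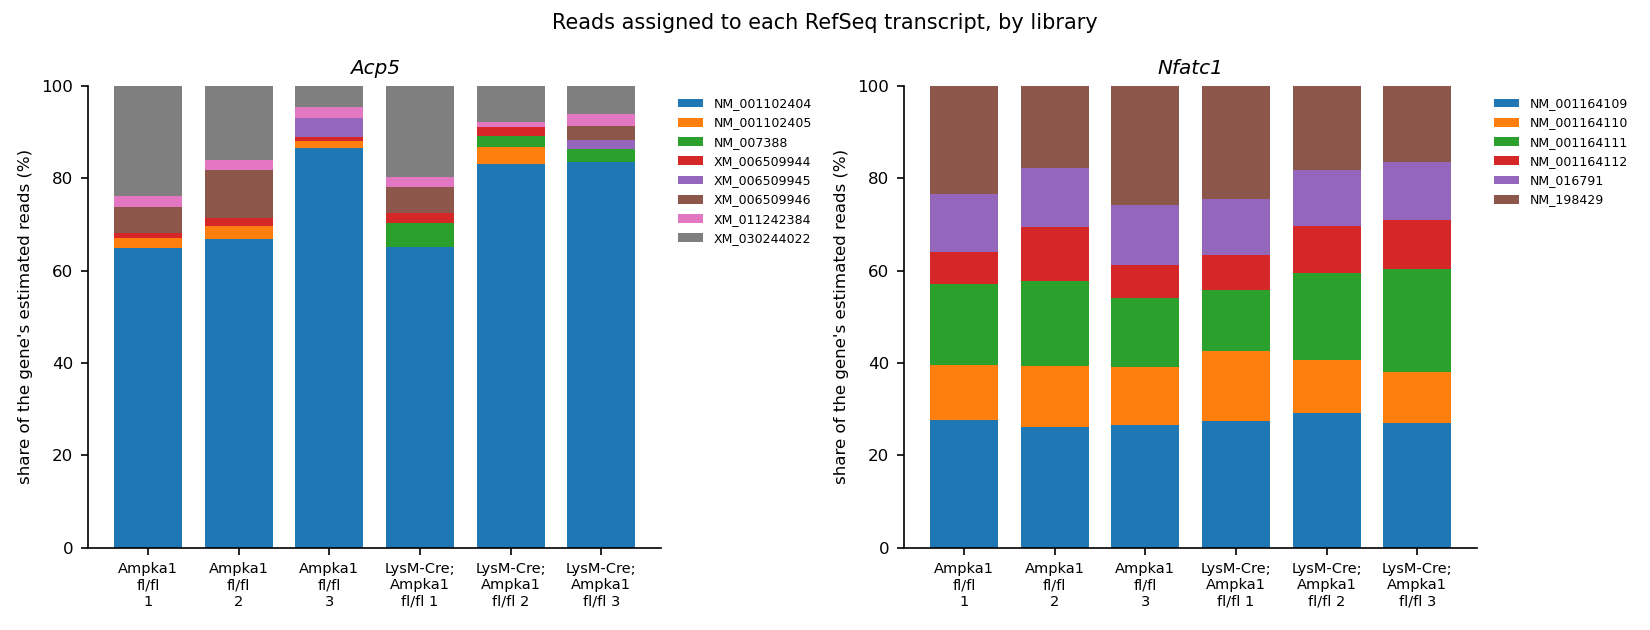
Share of the estimated reads of *Acp5* (left) and *Nfatc1* (right) assigned to each RefSeq transcript, in percent, with 1 stacked bar per library. NM_001102404 takes 65.0% to 86.5% of *Acp5* in every library, and no transcript of *Nfatc1* takes more than 29.1%.

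Among the receptors, *Tnfrsf11a* (NCBI Gene 21934, chr1:105780673-105849444), which encodes RANK, had fewer reads in every cKO library. The counts were 197, 208 and 193 in the control mice and 171, 189 and 150 in the cKO mice, or 4.31, 4.5 and 4.34 against 3.66, 4.28 and 3.13 TPM. The control mice lay close together and the cKO mice were spread more widely below them, with the second cKO mouse next to the control range. The difference did not pass the test (log2 fold change -0.25 ± 0.12 (SE), 95% interval -0.53 to 0.03, edgeR adjusted p = 0.404, two-sided exact permutation p = 0.1).

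*Oscar* (NCBI Gene 232790, chr7:3609813-3616157), the collagen-binding co-stimulatory receptor, had 8, 3 and 6 reads in the control mice and 2, 1 and 3 in the cKO mice. Every cKO library was at or under the floor of 3 reads, and the second control library was too. The summed reads were 17 and 6, a ratio of 0.346 (exact 95% interval 0.112 to 0.919, counting error only), and with no filter on low counts edgeR gave an unadjusted p of 0.0534. *Calcr* (NCBI Gene 12311, chr6:3685678-3764713), the calcitonin receptor of mature osteoclasts, is known from skeletal muscle satellite cells too. It had 0, 2 and 11 reads in the control mice and 10, 2 and 24 in the cKO mice. The third mouse of each group held most of its group's reads, and the summed reads of 13 and 36 gave a ratio of 2.71 (exact 95% interval 1.41 to 5.58). That interval covers counting error only, and with the spread between mice the unadjusted p without a filter was 0.246 by edgeR. The summed level of 10 skeletal muscle markers was also highest in the third mouse of each group (6338 TPM in the control and 18547 TPM in the cKO mouse), and their part in the *Calcr* reads was not tested.

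The ligand *Tnfsf11* (NCBI Gene 21943, chr14:78277446-78308043) was low in both groups. It had 43, 23 and 23 reads in the control mice and 22, 53 and 28 in the cKO mice, or 2.4, 1.27 and 1.33 against 1.19, 3.09 and 1.54 TPM. The first control mouse and the second cKO mouse were high and the other 4 were close to each other. The log2 fold change was 0.20 ± 0.42 (SE, 95% interval -0.80 to 1.20, edgeR adjusted p = 0.88), and -0.27 without the second cKO mouse.

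The balance of RANKL and its decoy sets how much signal reaches RANK. *Tnfrsf11b*, which encodes the decoy, had 10.31, 10.13 and 9.05 TPM in the control mice and 5.17, 10.01 and 7.95 TPM in the cKO mice (log2 fold change -0.36 ± 0.22 (SE), edgeR adjusted p = 0.512). The ratio of *Tnfsf11* to *Tnfrsf11b* TPM was 0.233, 0.125 and 0.147 in the control mice and 0.23, 0.309 and 0.194 in the cKO mice. Decoy transcripts thus exceeded ligand transcripts in all 6 libraries. The means were 0.168 ± 0.0568 and 0.244 ± 0.0588 (SD, n = 3 each), with overlapping ranges and a two-sided exact permutation p of 0.3. This ratio and the 2 transcript shares above were 3 tests chosen after the values were seen, with a Benjamini-Hochberg adjusted p of 0.9 each in the exact test.

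Ordered by mean TPM over the 6 libraries, *Ctsk* stood 14.0 times above *Nfatc1*, *Nfatc1* 1.78 times above *Acp5*, and *Acp5* 6.74 times above *Tnfrsf11a*. *Tnfrsf11a* was 1.74 times above *Atp6v0d2*. Each of these 4 neighbours was apart in all 6 libraries. *Atp6v0d2* and *Tnfsf11* overlapped, with *Atp6v0d2* the higher in 4 of 6 libraries, and *Calcr*, *Oscar*, *Dcstamp* and *Ocstamp* overlapped with each other. Of the genes in the table, 98.8% had a lower mean TPM than *Ctsk*, 82.5% than *Nfatc1* and 70.8% than *Acp5*. For *Tnfrsf11a* the share was 36.3%, and for *Dcstamp* and *Ocstamp* it was 16.0% and 15.1%.

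None of the other genes of osteoclast biology passed either. Of 49 such genes, 48 were tested and edgeR called 0. The median log2 fold change was 0.01, with 24 higher and 24 lower. At an unadjusted p under 0.05 there were 13 of 48 (against 14.5% of all genes), 5 of them higher (against 5.97% of all genes) and 8 lower (against 8.55%). DESeq2 called 5 of 48, 4 of them higher (among them *Slc9b2*, *Mmp14* and *Adam8*, against 2.12% of all genes called higher) and 1 lower (*Csf1r*, against 2.65%). The groups did not overlap for 15 of 48, against 20.4% of all genes tested. Without the second cKO mouse edgeR called 3 of them, among them *Mmp14* and *Slc9b2*, in a fit that called 276 of 14425 genes in all.

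*Csf1r*, the receptor of the growth factor M-CSF on which precursors depend, had 136.11, 132.92 and 151.29 TPM in the control mice and 95.28, 106.85 and 70.06 TPM in the cKO mice. All cKO mice were below all control mice, and the log2 fold change was -0.63 ± 0.13 (SE, edgeR adjusted p = 0.0933). Its ligand *Csf1* had a log2 fold change of -0.36 (edgeR adjusted p = 0.224). Of the 3 genes for ligands and decoy receptor, the estimates of *Csf1* and *Tnfrsf11b* lay below 0. That of *Il34*, named outside the rule, was -0.002 (edgeR adjusted p = 0.998). Of the 8 receptors and adaptors 7 were lower, against 7211 of all 14261 genes tested. Among the 7 was *Fcer1g*, the adaptor through which OSCAR signals (-0.39, edgeR adjusted p = 0.153). *Btk* (-0.52, edgeR adjusted p = 0.137) and *Vav3* (-0.45, edgeR adjusted p = 0.308) had the smallest p of the 9 signalling genes, of which 4 were higher and 5 lower. *Spi1*, the gene of PU.1, had -0.34 (edgeR adjusted p = 0.221).

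Genes of transcriptional control and of the resorption machinery were mixed. *Id2*, a repressor of osteoclast formation, had a log2 fold change of -0.32 (edgeR adjusted p = 0.185), and the activator *Fosl2*, a subunit of AP-1, had 0.20 (edgeR adjusted p = 0.192). In acid and chloride transport 10 of 12 genes were higher (against 49.4% of all genes tested) and 2 lower, with a median log2 fold change of 0.05. Of the 12 genes 1 had an unadjusted p under 0.05 by edgeR (against 14.5% of all genes). *Slc9b2*, a sodium-proton antiporter that marks maturing osteoclasts, had the largest log2 fold change of the 12 (0.92 ± 0.22 (SE), edgeR adjusted p = 0.128). Its levels were 3.48, 2.67 and 3.39 TPM in the control mice and 6.95, 4.55 and 6.5 TPM in the cKO mice. The chloride transporter *Clcn7* had 0.18 (edgeR adjusted p = 0.394).

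In matrix degradation, *Mmp14*, a membrane collagenase made by fibroblasts as well as osteoclasts, had 1350.72, 1209.39 and 1266.42 TPM in the control mice and 1795.4, 1437.04 and 1803.98 TPM in the cKO mice (log2 fold change 0.40 ± 0.11 (SE), edgeR adjusted p = 0.171). *Adam8*, which promotes precursor fusion, had 7.6, 6.93 and 4.71 TPM against 13.56, 10.6 and 9.18 TPM (log2 fold change 0.75 ± 0.22 (SE), edgeR adjusted p = 0.187). For both genes every cKO mouse was above every control mouse. *Mmp9*, named outside the rule because it is the classic osteoclast gelatinase, had 2.12 to 9.66 TPM in the control mice and 2.76 to 4.49 TPM in the cKO mice (edgeR adjusted p = 0.628).

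**Figure D3:**
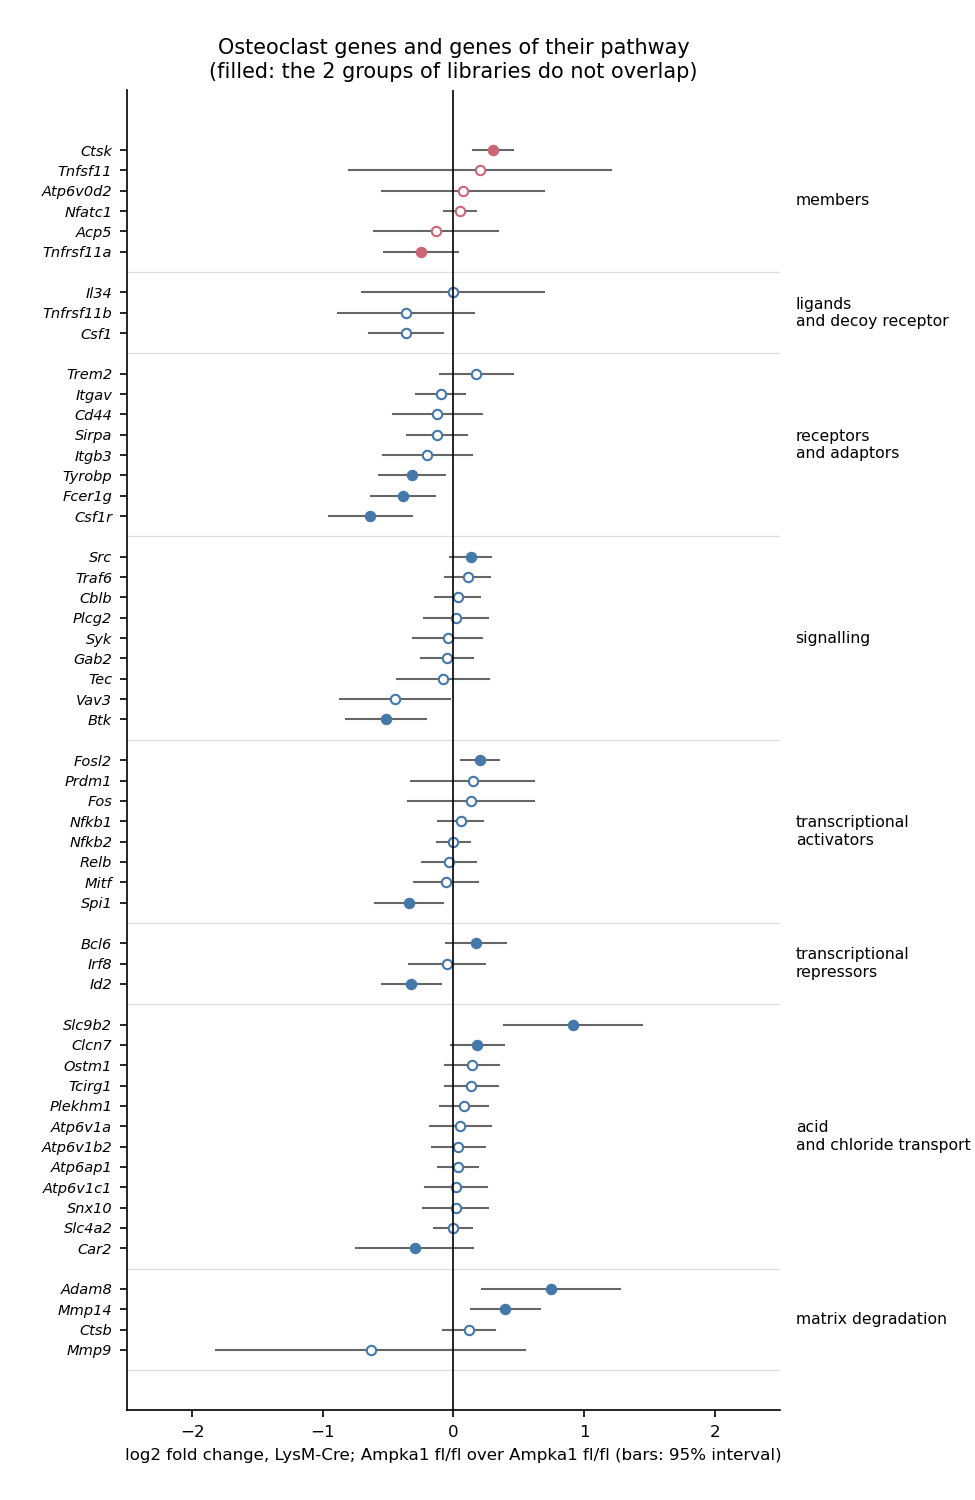
Log2 fold change of the cKO over the control group (horizontal axis) for the 6 tested members (red) and other osteoclast genes by role (blue), with 95% intervals; filled points have groups that do not overlap. *Ctsk* is the member with an interval that leaves out 0 (0.15 to 0.45), and none of the genes drawn had an edgeR adjusted p under 0.05.

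The tissue carried other cells. Among their markers edgeR called 6 of 7 erythroid genes and 1 of 8 tested cartilage genes, and none of the other lists. The part of these cells in the osteoclast values was not tested. All 12 macrophage markers were tested and edgeR called 0, with 6 at an unadjusted p under 0.05 (5 lower and 1 higher, against 8.55% and 5.97% of all genes) and 3 called by DESeq2 (against 4.77%). The median log2 fold change was -0.30 with 9 of 12 lower and 3 higher, and their summed level was 1246 to 1268 TPM in the control and 914 to 1157 TPM in the cKO mice. The most abundant, *C1qb* and *C1qa*, had log2 fold changes of -0.18 and -0.24 (edgeR adjusted p = 0.349 and 0.264). *Adgre1*, the gene of F4/80, and *Mrc1*, named after their values were seen, had -0.52 (edgeR adjusted p = 0.0508) and -0.83 (edgeR adjusted p = 0.115). The call of *Adgre1* depended on the setting. It passed by edgeR with no filter (adjusted p = 0.048) and with at least 10 reads in every library (adjusted p = 0.0411). It also passed by DESeq2 (adjusted p = 1.83e-05), and in no other alternative. The 3 higher markers, named outside the rule, were *Cd68* (0.25), *Mertk* (0.21) and *Fcgr1* (0.11), with edgeR adjusted p of 0.459, 0.162 and 0.748. *Csf1r* stands in this list and among the receptors above, and it is 1 of the 3 markers called by DESeq2.

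Bone-specific genes were low and uneven. Of 10 osteoblast and bone markers edgeR called 0, with 6 at an unadjusted p under 0.05 (against 14.5% of all genes) and 5 called by DESeq2, all lower (against 2.65%). The median log2 fold change was -1.57, and 9 of 10 were lower. Their summed level (16365 to 18583 against 16250 to 18213 TPM) was almost all *Col1a1*, which tendon cells make too. *Bglap*, the gene of osteocalcin, had 12.53, 20.12 and 49.11 TPM in the control mice and 1.36, 2.91 and 1.33 TPM in the cKO mice (log2 fold change -3.86, edgeR adjusted p = 0.0547). *Ibsp*, the gene of bone sialoprotein, had 10.76, 5.9 and 1.62 TPM against 0.0, 0.21 and 0.19 TPM (log2 fold change -5.46, edgeR adjusted p = 0.0638) and was named after its values were seen. By edgeR *Bglap* passed with no filter on low counts (adjusted p = 0.0488), and *Ibsp* passed without the third control mouse (adjusted p = 0.0464). In the same libraries *Acp5* differed by a log2 fold change of -0.13 and *Ctsk* by 0.30.

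Among 8 tested markers of growth plate cartilage 1 passed by edgeR and 3 by DESeq2, all higher (against 2.12% of all genes). The median log2 fold change was -0.09, with 3 higher and 5 lower. At an unadjusted p under 0.05 by edgeR there were 4 of the 8, with 3 higher (against 5.97% of all genes) and 1 lower (against 8.55%). *Col2a1*, named outside the rule, was the lower one (log2 fold change -1.89 ± 0.76 (SE), edgeR adjusted p = 0.316). *Col10a1*, also outside the rule, was not among the 8 tested. It had 115, 65 and 4 reads in the control mice and 1, 5 and 1 in the cKO mice. *Acan*, the gene of the proteoglycan aggrecan, rose from 221.0 ± 22.9 to 337.0 ± 25.0 TPM (SD, n = 3 each, log2 fold change 0.60, edgeR adjusted p = 0.0298, against 0.33% of all genes called higher), and it had an adjusted p of 0.0634 when the replicate number entered the fit as a block. It lost the call as well when any mouse other than the second cKO mouse was left out (adjusted p 0.073 to 0.163), and with limma on log2 TPM (adjusted p = 0.0532). *Col11a2*, with *Acan* the most abundant of the cartilage markers, had a log2 fold change of -0.33 (edgeR adjusted p = 0.554). The summed level of the list was 632 to 1445 TPM in the control and 684 to 782 TPM in the cKO mice. Tendon markers were even, with 0 of 8 called by edgeR or DESeq2, 0 at an unadjusted p under 0.05, and 8479 to 9356 against 8906 to 9764 TPM. All 10 skeletal muscle markers were higher (median log2 fold change 1.82), but 0 were called by edgeR or DESeq2 and 0 had an unadjusted p under 0.05. Their summed level ran from 384 to 6338 TPM in the control and from 2202 to 18547 TPM in the cKO mice.

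Of 7 genes of red blood cells 6 fell by edgeR, by log2 fold changes of -1.55 (*Hbb-bs*) to -1.62 (*Slc4a1*), against 0.568% of all genes called lower, and with the replicate block 1 of them, *Hbb-bs*, kept an adjusted p under 0.05 (0.0466). The count was 0 without the first or the second control mouse, 1 without the third control or the first or the third cKO mouse, and 4 without the second cKO mouse, and limma on log2 TPM called 3 of the 7. The summed erythroid level was 13809 to 22228 TPM in the control and 5174 to 7243 TPM in the cKO mice. Of 9 neutrophil markers 6 were tested and 0 called by edgeR or DESeq2 (0 at an unadjusted p under 0.05), and their summed level ran from 24.3 to 333 TPM in the control and from 44.7 to 397 TPM in the cKO mice. Of 8 T cell markers 3 were tested and 0 called by edgeR or DESeq2 (0 at an unadjusted p under 0.05), at a summed 8.41 to 12.6 against 6.68 to 9.82 TPM.

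**Figure D4:**
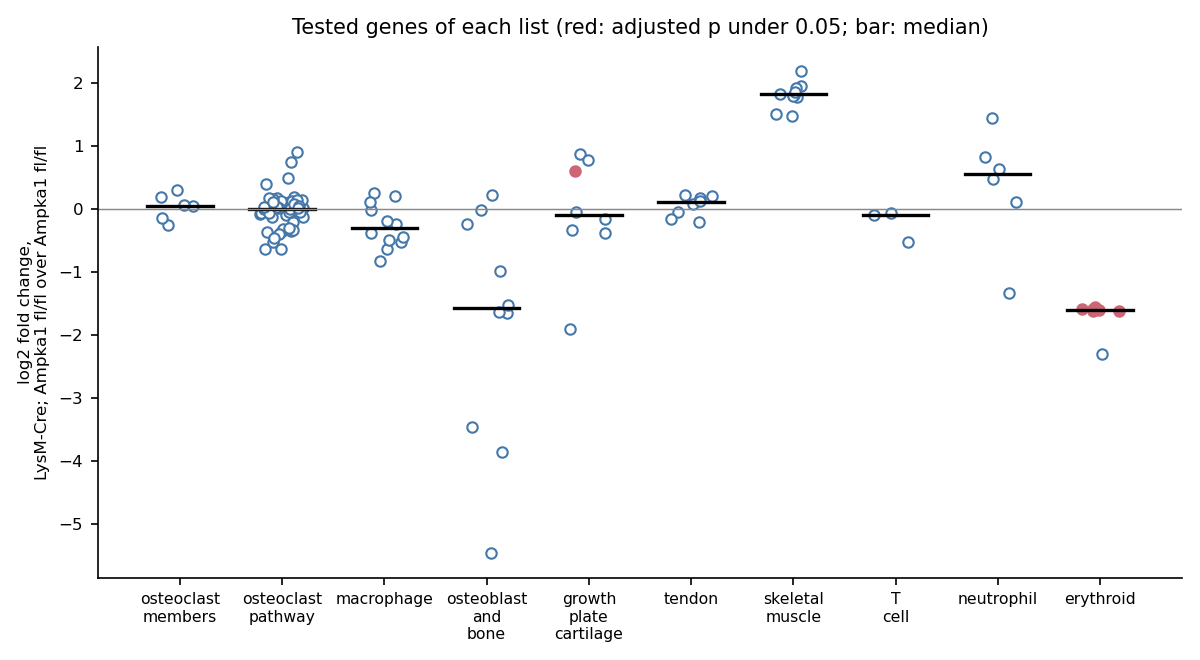
Log2 fold change of the cKO over the control group (vertical axis) for every tested gene of the osteoclast lists and of 8 marker lists; each point is a gene, red points have an edgeR adjusted p under 0.05, and the bar is the median. The osteoclast members lie around 0 (median 0.06), while the bone (-1.57), erythroid (-1.59) and muscle (1.82) medians lie far from it.

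Among the 5 genes whose pattern over the 6 libraries was most like the mean standardized log2 CPM of the 6 tested members were *Lrp12* (Pearson r = 0.992), *Gli2* (0.991), *Rtl8c* (0.98) and *Tlr6* (0.979). They were picked as the highest of all genes tested, and 6 points from the same libraries share depth and composition, so these values are a description. None of these 4 passed the test between the genotypes (edgeR adjusted p 0.82 to 0.955).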

How the data were processed

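Total RNA of tendon tissue from 3 mice per genotype was extracted with TRIzol and sequenced on a BGISEQ platform. For each of 65053 RefSeq transcripts the table deposited by the authors holds an estimated count, which is not normalized, and a TPM value, which the authors scaled to transcript length. The genome build is GRCm38.p6 in the submitters' processing notes, and the aligner and counting tool are not given in the sources used here. The table's 12 other per-sample columns (normalized counts and FPKM) and its 8 group averages stayed out.

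Estimated counts and TPM were summed per gene (18099 genes, 99.72% matched to a symbol through NCBI Gene), and the counts were rounded to whole reads. The genotypes were compared by the quasi-likelihood F test of edgeR 4.0.16 (R 4.3.3), after TMM scaling and filterByExpr, with Benjamini-Hochberg adjustment over 14261 genes and a threshold of 0.05. Each standard error (SE) is the estimate over the root of its F statistic, and 95% intervals use the t distribution of the fit. The script was tested on simulated data. Single values used the two-sided exact permutation test, on log2(CPM + 0.5) for genes. A gene with 3 reads or fewer in a library was treated as at the floor there. Levels between genes were compared in TPM only. Intervals on summed reads are exact and binomial, at 95%. Promoters are RefSeq's on GRCm38.p6.

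The alternatives were RLE and upper-quartile scaling, no filter, at least 10 reads in every library, DESeq2 1.42.0, limma 3.58.1 on log2(TPM + 0.1), the replicate number as a block, and each library left out in turn. The labels number the replicates 1 to 3 in both groups. The deviations of same-numbered mice from their group means were weakly correlated (0.184, 0.118 and 0.31). Differently numbered mice were not compared, so these values do not establish a pairing. No label says what a number stands for.

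The 10 genes and the lists were chosen with earlier results of these data known. The text names all 10 genes, *Prkaa1*, *Lyz2*, every called gene of the lists, in each role of the osteoclast list the up to 2 genes with the smallest p, of each marker list the up to 2 most abundant, and the 5 genes most like the members. Other names are marked, and 2 genes that this rule selects are not reported here. The labels give 3 mice per group, and p-values measure the spread between these samples.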

Additional observations from a re-analysis of the deposited data

How the results depend on the processing

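Of the 78 values that the 13 alternatives gave for the 6 tested osteoclast genes, 73 kept their direction and their side of the threshold, 1 gained the call (*Ctsk* by DESeq2) and 4 turned in sign. The 4 were *Tnfsf11* without cKO replicate 2 (-0.27), *Acp5* without cKO replicate 2 (0.05), and *Atp6v0d2* without control replicate 3 (-0.10) and without cKO replicate 1 (-0.11), none of them past the threshold. Over the fits that left out 1 mouse, the log2 fold change lay between -0.27 and 0.55 for *Tnfsf11*, between -0.11 and 0.26 for *Atp6v0d2* and between -0.27 and 0.05 for *Acp5*. The cause was not tested. DESeq2 called 1 of the members, 5 of the other osteoclast genes and 680 of all genes. When single mice were left out, edgeR called 8 to 276 of all genes, the most without cKO replicate 2, and 0 to 3 of the other osteoclast genes. With the replicate block edgeR called 47 of all genes, and the block changed no call of a member or of another osteoclast gene. Limma on TPM called 61 of all genes. Among the further named genes, the sign also turned for *Col1a1* (0.00 with RLE and with DESeq2). When single mice were left out it turned for *Col1a1* (-0.06 to 0.07), *Lck* (-0.52 to 0.34), *Mmp9* (-1.02 to 0.04), *Gli2* (-0.01 to 0.16), *Rtl8c* (-0.02 to 0.06), *Tlr6* (-0.01 to 0.17) and *Lrp12* (-0.00 to 0.04). With no filter on low counts edgeR also tested the 4 members with few reads, and called 0 of them (unadjusted p 0.0534 to 0.744).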
